A study of Mus musculus with 4 samples.

Results

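The genes described here encode the heterochromatin protein 1 (HP1) family and some of the enzymes that methylate histone H3 at lysine 9 (H3K9). Trim28, the gene of a corepressor that works with both, is included. They are 9 genes of the 55487 gene identifiers measured, chosen by symbol: Cbx1, Cbx3, Cbx5, Trim28, Suv39h1, Suv39h2, Setdb1, Ehmt1 and Ehmt2. All 9 passed the filter on low counts, with 27551 genes tested in all. The genes were picked with their differences between the morpholinos in view, so those differences are given as a description, without a test.

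The cells were satellite cells, the stem cells of skeletal muscle, from 2 mice of the genotype Tg:Pax7-nGFP, in which a nuclear green fluorescent protein marks Pax7-expressing cells. All 4 libraries carry that transgene. Minced muscle of each mouse was exposed in the first digestion step either to a control morpholino or to a vivo-morpholino against exon 6 of Numb. A morpholino is an antisense oligomer, here one that enters cells unaided and blocks inclusion of that exon. Numb encodes an endocytic adaptor that restrains Notch signalling. Each mouse gave 1 control library and 1 Numb exon 6 library, so each morpholino group holds 2 libraries. The morpholino was added to whole tissue before the cells were isolated, not to sorted cells. The labels used here name neither an age nor a sex.

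Heterochromatin is the compacted, mostly silent part of the genome. HP1 proteins bind methylated H3K9 through a chromodomain and recruit more methyltransferase, which lets the mark spread. Suv39h1 and Suv39h2 methylate H3K9 mainly at pericentromeric repeats, Setdb1 acts at retroelements with its cofactor Trim28, and Ehmt1 and Ehmt2 form a dimer that methylates H3K9 in euchromatin. In muscle stem cells several of these enzymes are known as repressors of muscle genes before differentiation.

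The estimated counts summed to between 230431665 and 355411827 per library, totals that cannot be read as fragments. The 10 satellite cell markers summed to 10700 and 11500 TPM (a transcript level scaled to transcript length and to the library) in the control libraries and to 12400 and 12500 TPM in the Numb exon 6 libraries. Of these sums Sdc4 alone held 6499 to 7673 TPM, and Pax7 lay between 37.0 and 59.7 TPM. The 12 leukocyte markers were low, at 32.5 and 37.7 TPM in the controls and 43.1 and 134 TPM with the Numb exon 6 morpholino, and 9 of the 12 were higher with it in both mice. S100a8 and S100a9 made up most of the last value, at 46.6 and 36.0 TPM in the library of mouse 2. The 3 erythroid markers were higher with it in both mice as well, at 358 and 1010 TPM in the controls and 624 and 1150 TPM with the Numb exon 6 morpholino. The 6 fibro-adipogenic markers summed to 1420 and 1290 TPM in the controls against 1500 and 1380 TPM, with 3 of the 6 higher in both mice. Gsn alone held 779 to 832 TPM of these sums. The 5 smooth muscle and pericyte markers had 117 and 93.5 TPM against 138 and 102 TPM, with 4 of the 5 higher in both. The 6 endothelial markers had 80.2 and 74.8 TPM against 113 and 81.6 TPM, with 3 of the 6 higher in both. Acta2 held 72.6 to 106 TPM of the smooth muscle sums and Tek 42.3 to 55.1 TPM of the endothelial sums. The 4 glia markers had 7.68 and 9.85 TPM against 17.2 and 7.61 TPM, with 1 higher in both mice. The 6 myofibre markers had 35.1 and 37.7 TPM against 43.0 and 38.5 TPM, with 2 higher in both. The 12 S phase and mitosis markers had 227 and 230 TPM against 247 and 244 TPM, with 3 higher in both. Of the 10 satellite cell markers, 6 were higher in both mice and 1 was lower in both. No marker of these lists was at 0 in any library, and their part in the results below was not tested. The share of all genes higher in both mice was not counted, so nothing is read from these counts of markers. Numb had 27.2 and 37.0 TPM in the control libraries, beside 39.7 and 40.2 TPM with the Numb exon 6 morpholino. A value per gene sums transcripts that hold exon 6 and transcripts that lack it, so it does not check the morpholino.

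By mean TPM over the 4 libraries, Trim28 was the highest of the 9 genes at 47.3 ± 6.69 (SD, n = 4). Cbx3 followed at 28.2 ± 20.9, Cbx1 at 27.6 ± 3.75, Suv39h1 at 21.3 ± 1.83 and Cbx5 at 19.6 ± 2.25. The lower levels were those of Ehmt2 at 14.6 ± 1.56, Setdb1 at 12.4 ± 1.59, Ehmt1 at 9.37 ± 0.93 and Suv39h2 at 6.24 ± 1.97. The ranges over the libraries overlapped between each gene and the next in this order, with the exception of Cbx5 and Ehmt2, whose lowest and highest values were 17.5 and 16.0 TPM. The SD of Cbx3 was the widest, and its range of 8.38 to 47.3 TPM spans most of the order: with the Numb exon 6 morpholino it lay below Ehmt2 in both mice.

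**Figure D1:**
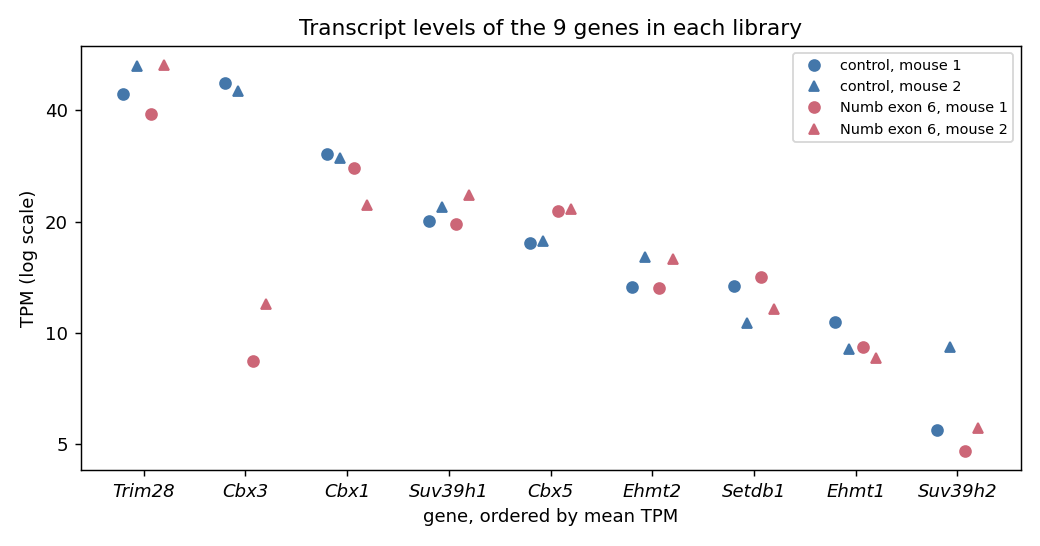
TPM (log axis) of the 9 genes in each of the 4 libraries, with 1 point per library, blue for the control and red for the Numb exon 6 morpholino, circles for mouse 1 and triangles for mouse 2. Cbx3 has 47.3 and 45.2 TPM in the controls, against 8.38 and 11.9 TPM with the Numb exon 6 morpholino, while the other 8 genes spread less, Suv39h2 the most among them with 4.80 to 9.15 TPM.

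Among the HP1 genes, Cbx3 was several-fold lower with the Numb exon 6 morpholino in both mice, Cbx5 was slightly higher in both, and Cbx1 was lower mainly in mouse 2. Cbx3 encodes HP1γ, found in both euchromatin and heterochromatin. The gene lies on the plus strand of chromosome 6 (chr6:51470360-51483704, GRCm38) and has 8 annotated transcripts. Its level was 47.3 and 45.2 TPM in the control libraries of mouse 1 and mouse 2, against 8.38 and 11.9 TPM in their Numb exon 6 libraries. The estimated counts were 16670 and 13421 in the controls and 2801 and 2556 with the Numb exon 6 morpholino. Both control libraries were high, both Numb exon 6 libraries were low, and the groups did not overlap in either unit.

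On the CPM scale, which divides counts by the library's size, Cbx3 had 47.8 and 43.9 CPM under the control morpholino, against 8.75 and 10.9 CPM under the other. The log2 CPM ratio of Numb exon 6 to control was -2.45 in mouse 1 and -2.01 in mouse 2, and the fitted log2 fold change was -2.22 ± 0.18 (SE). On the mean TPM of the groups the controls were 4.55-fold higher. Among the 8540 genes whose log2 CPM averaged 3 or higher, 7 (0.082%) had a log2 CPM ratio below -1 in both mice, and 1 (0.0117%), Cbx3, had one below -2 in both. Ranked by the smaller of its falls in the 2 mice, Cbx3 was number 1 of these 8540 genes. These are the values that put the gene on the list, and nothing is read from its rank. In RNA from a pool of cells, fewer cells of a type and less RNA per cell cannot be told apart.

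**Figure D2:**
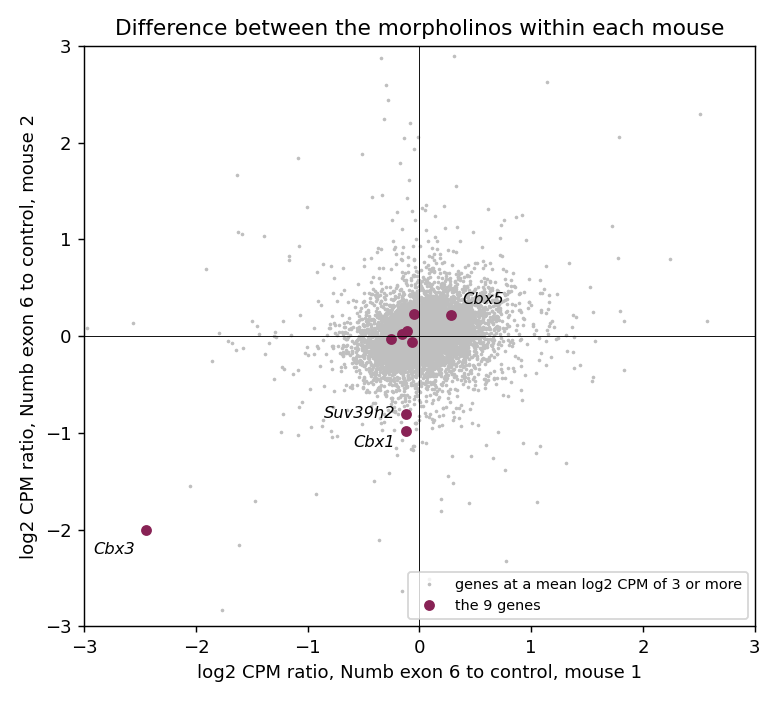
Log2 CPM ratio of the Numb exon 6 to the control library in mouse 1 (horizontal) and mouse 2 (vertical), with grey dots for 8540 genes whose log2 CPM averaged 3 or higher, of which 8 lie outside the axes, and purple dots for the 9 genes. Cbx3 lies alone at -2.45 and -2.01, Cbx1 and Suv39h2 lie near 0 in mouse 1 and below 0 in mouse 2, Cbx5 is above 0 in both, and the 5 unlabelled genes lie near the centre.

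The HP1 genes are paralogs, and Cbx3 has many processed copies in the mouse genome, so the sequences of the chromodomain coding region are shown to let a reader see how far reads of these genes can be told apart. The stretch of 81 bases starts at coding base 82 of Cbx3, 55 of Cbx1 and 52 of Cbx5. It was read from the GENCODE vM21 transcripts on GRCm38, and capitals mark bases that differ from Cbx3. Cbx1 differed from Cbx3 at 17 of the 81 bases and Cbx5 at 22, while the pseudogenes Cbx3-ps6 (chr14:73955000-73955551, minus strand) and Cbx3-ps7 (chr1:58646688-58647239, plus strand) differed at 0.
Cbx3: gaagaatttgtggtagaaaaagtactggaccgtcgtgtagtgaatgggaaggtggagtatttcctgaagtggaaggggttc
Cbx1: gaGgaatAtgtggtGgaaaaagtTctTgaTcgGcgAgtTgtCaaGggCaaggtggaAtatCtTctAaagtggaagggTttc
Cbx5: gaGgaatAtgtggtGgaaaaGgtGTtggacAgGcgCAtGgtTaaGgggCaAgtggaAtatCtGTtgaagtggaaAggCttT
Cbx3-ps6: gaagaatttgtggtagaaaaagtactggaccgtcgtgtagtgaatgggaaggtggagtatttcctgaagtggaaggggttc
Cbx3-ps7: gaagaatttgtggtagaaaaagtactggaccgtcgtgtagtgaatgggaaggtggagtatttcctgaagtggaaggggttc

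Over the whole coding sequences of 555 bases for Cbx1, 549 for Cbx3 and 573 for Cbx5, the longest identical run was 11 bases between Cbx1 and Cbx3 and 14 between Cbx3 and Cbx5. Cbx1 and Cbx5 shared a run of 20 bases, gaggaatatgtggtggaaaa, which opens the stretch printed above. Reads that lie within these coding sequences and are longer than these runs therefore differ between the 3 functional genes. The parts of the transcripts outside the coding sequences were not compared. The copies of Cbx3 are another matter, since a read within them can match both.

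A search of the annotated transcripts found 20 gene models of the files that match Cbx3 at 90% identity or more over at least 200 bases. They include Cbx3-ps6 at 99.8% and Cbx3-ps7 at 99.6% identity, and the lincRNA Gm49164 at 99.8%. The protein-coding gene Als2cr12, which matches over 319 bases, is also counted among them. It had 9 and 41 counts in the controls and 9 and 16 with the Numb exon 6 morpholino. Cbx3-ps8 and Gm3489 had 27 and 21 counts in the control of mouse 1 and at most 1 in any other library. Together the 20 copies held 159 and 144 estimated counts under the control morpholino, against 101 and 77 under the Numb exon 6 morpholino. That was 0.954% and 1.07% of the Cbx3 counts under the first, against 3.61% and 3.01% under the second. The Cbx3 count itself was lower by 13869 in mouse 1 and by 10865 in mouse 2, and the part of the copies in this was not tested. Cbx3-ps6 had 34 and 45 counts in the controls and 37 and 21 with the Numb exon 6 morpholino. How the authors' counting shared reads between Cbx3 and its copies is not given in the sources used here, so these small counts are uncertain.

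Hnrnpa2b1, which encodes an RNA-binding protein, starts 466 bases from Cbx3 on the opposite strand. Its level was 831 and 882 TPM in the controls and 740 and 856 TPM with the Numb exon 6 morpholino, with a log2 fold change of -0.20 ± 0.11 (SE) and an adjusted p of 0.999 in edgeR. The neighbour was thus high in all 4 libraries and slightly lower with the Numb exon 6 morpholino in both mice (log2 CPM ratio -0.28 and -0.11). Cbx3 was low in 2 of the libraries. Between the morpholinos edgeR called 0 of the 27551 tested genes, so the test does not set the neighbour apart from Cbx3.

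Cbx5 encodes HP1α, the family member most tied to pericentromeric heterochromatin, and lies on the minus strand of chromosome 15 (chr15:103191544-103239816). It had 17.5 and 17.7 TPM in the controls and 21.4 and 21.6 TPM with the Numb exon 6 morpholino. Both Numb exon 6 libraries were above both controls, also in CPM, where the values were 75.1 and 77.6 against 91.4 and 90.01. The log2 CPM ratio was 0.28 in mouse 1 and 0.22 in mouse 2, with a fitted log2 fold change of 0.25 ± 0.11 (SE). The 2 libraries of a group were close to each other, and the difference was small beside that of Cbx3. Hnrnpa1, which starts 616 bases from Cbx5 on the opposite strand, had a log2 fold change of -0.16 ± 0.13 (SE) and an adjusted p of 0.999 in edgeR. As edgeR called 0 of the 27551 tested genes between the morpholinos, the test does not set this neighbour apart from Cbx5.

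Cbx1 encodes HP1β and lies on the plus strand of chromosome 11 (chr11:96789127-96808640). It had 30.4 and 29.8 TPM in the controls and 28.0 and 22.2 TPM with the Numb exon 6 morpholino. The estimated counts were 10716 and 9400 in the controls and 9026 and 3654 with the Numb exon 6 morpholino. The low library was that of mouse 2, and the Numb exon 6 library of mouse 1 lay just under the controls. The log2 CPM ratio was -0.12 in mouse 1 and -0.98 in mouse 2, and the fitted log2 fold change of -0.49 ± 0.29 (SE) became -0.13 when the Numb exon 6 library of mouse 2 was left out. On log2(TPM + 1) the ratio in mouse 2 was -0.41, less than on the CPM scale.

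The sum of the 3 HP1 genes was 95.2 and 92.7 TPM in the control libraries and 57.8 and 55.7 TPM with the Numb exon 6 morpholino. Cbx3 made up 49.7% and 48.8% of that sum in the controls, Cbx1 31.9% and 32.1%, and Cbx5 18.4% and 19.1%. With the Numb exon 6 morpholino Cbx3 made up 14.5% of the sum in mouse 1 and 21.4% in mouse 2. Cbx1 then held 48.5% and 39.8%, and Cbx5 37.1% and 38.8%. The order within the family therefore differed between the groups: Cbx3 was the highest of the 3 in both controls and the lowest in both Numb exon 6 libraries. The shares of Cbx1 and Cbx5 are larger there in part by construction, since the shares of a sum are not independent. The depth in fragments is unknown, so no counting interval is given for the shares.

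**Figure D3:**
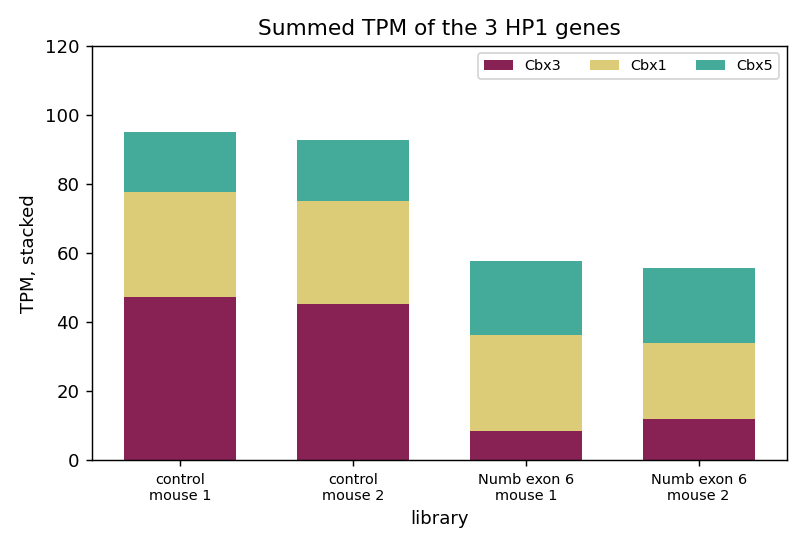
TPM of Cbx3, Cbx1 and Cbx5 stacked for each of the 4 libraries, with the bar height giving the sum of the 3 HP1 genes. The sum is 95.2 and 92.7 TPM in the controls and 57.8 and 55.7 TPM with the Numb exon 6 morpholino, and of the 3 segments that of Cbx3 is the most reduced in both mice.

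Among the genes that write the mark, none stood apart between the morpholinos in both mice by more than a small amount. Trim28 encodes KAP1, the corepressor that links zinc finger proteins of the KRAB type to Setdb1 and HP1, and lies on the plus strand of chromosome 7 (chr7:12999114-13031035). It had 44.3 and 52.6 TPM in the controls and 39.2 and 52.9 TPM with the Numb exon 6 morpholino. The groups overlapped, and the 2 libraries of mouse 2 were the high ones. Setdb1 (chr3:95323525-95357202, minus strand), the methyltransferase recruited by Trim28, had 13.4 and 10.7 TPM in the controls and 14.1 and 11.6 TPM with the Numb exon 6 morpholino. The groups overlapped here too, with the 2 libraries of mouse 1 above those of mouse 2. The fitted log2 fold changes were -0.13 ± 0.18 (SE) for Trim28 and 0.08 ± 0.20 for Setdb1.

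Suv39h1 (chrX:8061171-8074760, minus strand) had 20.1 and 22.0 TPM in the controls and 19.7 and 23.6 TPM with the Numb exon 6 morpholino. The 2 groups overlapped and the log2 fold change was -0.03 ± 0.15 (SE). Its partner enzyme Suv39h2 (chr2:3455815-3475031, minus strand) had 5.45 and 9.15 TPM in the controls and 4.80 and 5.54 TPM with the Numb exon 6 morpholino. A single library, the control of mouse 2, was high, and the other 3 lay between 4.80 and 5.54 TPM. In CPM its groups did not overlap, with 7.89 and 13.0 against 7.26 and 7.43, whereas in TPM they did. The fitted log2 fold change of -0.51 ± 0.28 (SE) became -0.11 without the control library of mouse 2. Suv39h2 overlaps Dclre1c, a DNA repair nuclease gene on the opposite strand with 10.6 to 12.8 TPM, and the libraries do not keep the strand, so reads of the overlap cannot be assigned. The antisense gene Gm14820 overlaps Suv39h1 and held 62 to 84 counts per library. The same limit holds for other genes of the 9 that overlap a gene on the opposite strand. Setdb1 overlaps Cers2, which had 200 to 219 TPM, at chr3:95323525-95323599. Trim28 overlaps Zbtb45 (0.389 to 0.685 TPM), and Cbx1 overlaps the pseudogene Gm11517 (152 to 314 counts).

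Ehmt1, which encodes GLP (chr2:24789928-24919614, minus strand), had 10.7 and 9.05 TPM in the controls and 9.17 and 8.55 TPM with the Numb exon 6 morpholino. Ehmt2, which encodes G9a (chr17:34898469-34914052, plus strand), had 13.3 and 16.0 TPM in the controls and 13.2 and 15.8 TPM with the Numb exon 6 morpholino. The fitted log2 fold changes were -0.07 ± 0.20 (SE) for Ehmt1 and -0.06 ± 0.15 for Ehmt2. Both genes overlapped between the groups, and the pair of libraries from a mouse stood closer than the pair from a morpholino for Ehmt2.

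Counted over the 9 genes on the CPM scale, 3 were lower in both Numb exon 6 libraries than in both controls (Cbx1, Cbx3 and Suv39h2), 1 was higher (Cbx5) and 5 overlapped. Over all 27551 tested genes, 17.1% were lower and 17.4% higher in this sense. In TPM, 2 of the 9 were lower, 1 was higher and 6 overlapped, beside 14.0% and 20.5% of all tested genes. The median log2 fold change of the 9 genes was -0.07, beside 0.01 over all tested genes. Because this contrast chose the genes, nothing is read from these counts.

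The estimated counts of the authors carry transcript length and the TPM do not, so their ratio gives the mean length of the transcripts assigned to a gene in a library. For Cbx1 this implied length was 1876 and 1983 bases in the controls, and with the Numb exon 6 morpholino it was 1973 bases for mouse 1 and 1386 bases for mouse 2. The last is 0.699 of the control of the same mouse, and Cbx1 was the only one of the 9 genes to move by more than 1.3-fold in a mouse. Among 9829 genes with over 500 counts and more than 1 transcript, 0.987% were shorter and 1.44% longer by that much in mouse 2, and 0.997% and 1.33% in mouse 1. The low count of Cbx1 in that library thus went with a shorter mean length of the assigned transcripts. The annotation lists 5 transcripts of Cbx1, from 814 to 2377 bases. For Cbx3 the implied length was 1875 and 1865 bases in the controls and 2045 and 1801 bases with the Numb exon 6 morpholino. Its ratio to the control was 1.09 in mouse 1 and 0.966 in mouse 2, so counts and TPM gave about the same difference. Over the remaining 7 genes the ratio lay between 0.965 and 1.11 in both mice. Cbx5 had the longest transcripts, at 7951 to 8416 bases, and its counts exceeded those of Trim28 while its TPM were lower.

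**Figure D4:**
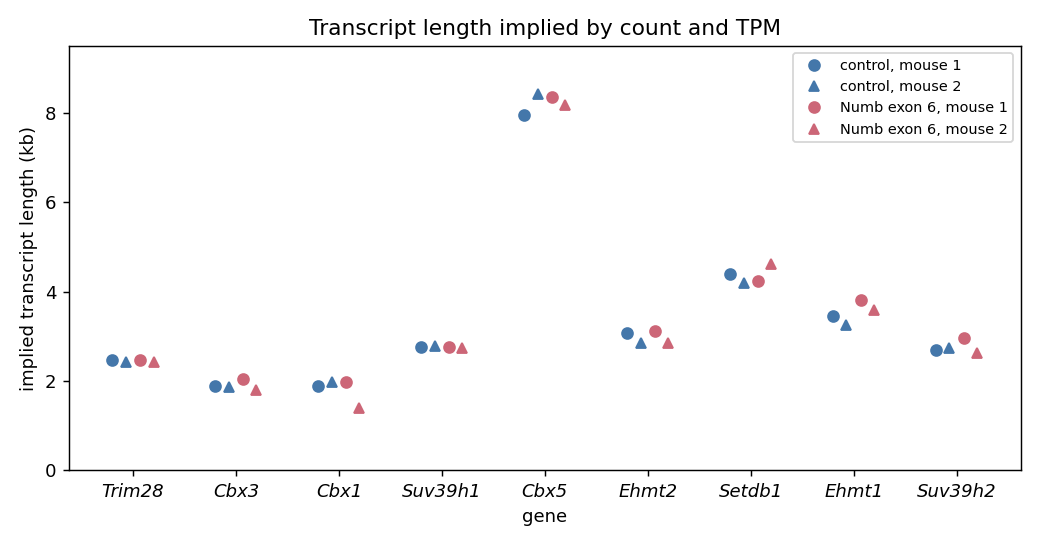
Mean transcript length in kb implied by the estimated count and the TPM of each gene, with 1 point per library, blue for the control and red for the Numb exon 6 morpholino, circles for mouse 1 and triangles for mouse 2. Cbx1 drops from 1983 to 1386 bases in mouse 2 with the Numb exon 6 morpholino, and the 4 points of each other gene lie close together.

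The difference between the 2 animals was not used to choose the genes and was tested with edgeR. It sets 1 animal against 1, so its p-values measure the spread between the libraries of an animal. The fit holds no term for the morpholino, so this spread includes the difference between the morpholinos. The genes were picked with that difference in view, so a gene with a large one, such as Cbx3, can hardly pass. Trim28 was higher in mouse 2 by a log2 fold change of 0.28 ± 0.12 (SE) with an adjusted p of 0.625 in edgeR. Setdb1 was at -0.30 ± 0.13 (adjusted p = 0.629, edgeR) and Ehmt1 at -0.29 ± 0.14 (adjusted p = 0.647, edgeR), the negative sign meaning a lower value in mouse 2. Suv39h2 was at 0.43 ± 0.29 (adjusted p = 0.762, edgeR), and this became -0.04 without the control library of mouse 2. None of these passed the threshold.

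The remaining genes had adjusted p-values from 0.773 for Suv39h1 to 0.998 for Cbx3 in edgeR. For Cbx3 the difference between the mice was -0.04 ± 0.92 (SE), and with the morpholino as a term it was 0.10. In edgeR 0 of the 9 genes were called between the mice, beside 7 of 27551 genes (0.0254%), and 0 of the 9 had an unadjusted p under 0.05, beside 8.31% of all genes. DESeq2, also without a term for the morpholino, called 0 of the 9 beside 1.78% of all genes. Because the spread within a mouse holds the contrast that chose the genes, nothing is read from these counts of the 9. The count of 7 genes became 1 without the control or the Numb exon 6 library of mouse 1, 19 without the control library of mouse 2 and 28 without its Numb exon 6 library. In TPM, 4 of the 9 genes were higher in both libraries of mouse 2 (Trim28, Suv39h1, Suv39h2 and Ehmt2), 2 were lower (Setdb1 and Ehmt1) and the 3 HP1 genes overlapped. Over all tested genes 22.5% were higher and 16.7% lower in this sense.

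The wider heterochromatin machinery was described through 4 lists. Over all 27551 tested genes, edgeR called 0.0% between the morpholinos and 4.16% had an unadjusted p under 0.05. DESeq2 called 0.236% of these genes, and edgeR without a filter on low counts called 0.0221% of 45277 genes. Of the lists DESeq2 called 1 gene and edgeR without the filter 0. The first list holds 16 genes that work with the H3K9 methyltransferases or, as Setdb2, Prdm2, Mecom and Prdm16, are relatives of such enzymes. Of the 16, 0 were called between the morpholinos in edgeR, and 1 was higher and 0 lower at an unadjusted p under 0.05, beside 4.16% of all genes. Their median log2 fold change was 0.01. Morc2a, a chromatin ATPase of the HUSH silencing pathway, had 48.5 and 48.3 TPM in the controls and 41.0 and 40.6 TPM with the Numb exon 6 morpholino (log2 fold change -0.30 ± 0.13). Atf7ip, which stabilises Setdb1, had 35.2 and 32.6 TPM against 42.0 and 39.6 TPM (0.16 ± 0.12). Mecom, a zinc finger factor of the PRDM family, was low, with 1.17 and 1.70 TPM against 2.60 and 1.92 TPM (0.69 ± 0.26). The groups of these 3 genes did not overlap in TPM, as for 14.0% of all tested genes in the lower and 20.5% in the higher direction, and the adjusted p in edgeR was 0.999 for each. Morc2a and Mecom were named for the smallest p of their list in this contrast.

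Of 24 genes whose products bind or act with HP1, 0 were called in edgeR, 1 was higher and 1 lower at an unadjusted p under 0.05, beside 4.16% of all genes, and the median was 0.01. Adnp, a zinc finger protein that forms a complex with Chd4 and HP1, had 5.17 and 3.16 TPM in the controls and 9.65 and 10.4 TPM with the Numb exon 6 morpholino. Both Numb exon 6 libraries were above both controls in TPM, as for 20.5% of all tested genes. Its log2 fold change was 1.74 ± 0.44 (SE), with an adjusted p of 0.999 in edgeR. DESeq2 gave it an adjusted p of 0.00501, the only gene of the 4 lists that this tool called between the morpholinos (0.236% of all genes), and over all alternatives the adjusted p ran from 0.00501 to 1.0. Dnmt3b, a de novo DNA methyltransferase, was at the other end with 6.32 and 5.46 TPM against 3.90 and 4.60 TPM (-0.73 ± 0.19, adjusted p = 0.999 in edgeR). Of all tested genes 14.0% were lower without overlap in TPM. Adnp and Dnmt3b were named for the smallest p of their list in this contrast. Chd4, the remodelling ATPase of that complex, had 80.8 and 120 TPM in the controls and 73.6 and 113 TPM with the Numb exon 6 morpholino. Lbr, the lamin B receptor that tethers heterochromatin to the nuclear envelope, had 93.6 and 75.1 TPM against 109 and 93.9 TPM. Chd4 thus differed more between the mice than between the morpholinos. Its log2 CPM ratio of Numb exon 6 to control was -0.16 in mouse 1 and -0.13 in mouse 2, and -0.15 ± 0.075 (SE) with the mouse as a block. Between the mice it was at 0.50 ± 0.11 with an adjusted p of 0.513 in edgeR and 0.0333 in DESeq2. The adjusted p ran from 0.0333 to 0.524 over the alternatives that keep all 4 libraries.

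Of 11 genes for H3K9 demethylases, which remove the mark, 0 were called in edgeR, 0 had an unadjusted p under 0.05, beside 4.16% of all genes, and the median was -0.01. DESeq2 called 0 of them, beside 0.236% of all genes. Jmjd1c was the highest, with 147 and 132 TPM in the controls and 169 and 156 TPM with the Numb exon 6 morpholino (0.26 ± 0.12). Kdm3a had 63.1 and 80.5 TPM against 70.3 and 83.7 TPM (0.12 ± 0.18), and Kdm4c had 4.97 and 5.11 TPM against 6.52 and 6.28 TPM (0.23 ± 0.17). In TPM the groups overlapped for Kdm3a and not for Jmjd1c and Kdm4c, which had the smallest p of the list, beside 20.5% of all tested genes that were higher without overlap.

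The last list holds 4 Polycomb chromobox genes, which carry a chromodomain like that of HP1 but serve the Polycomb repressive complex. In edgeR 0 were called and 1 was higher at an unadjusted p under 0.05, beside 4.16% of all genes. The median log2 fold change was 0.70. It lies between Cbx7 and Cbx2 (0.765 ± 0.65) and so rests in part on a gene of very low level. With the Numb exon 6 morpholino 3 of the 4 were higher in both mice, a share that was not counted over all genes. The list includes Cbx2, at 0.115 to 0.507 TPM, and Cbx8, at 0.140 to 0.430 TPM, the lowest of the 4, which are named here after their values were seen. Cbx7 had 8.18 and 7.27 TPM in the controls and 12.3 and 13.4 TPM with the Numb exon 6 morpholino (0.63 ± 0.16, adjusted p = 0.999 in edgeR). Both Numb exon 6 libraries were above both controls for Cbx7, as for 20.5% of all tested genes in TPM. Cbx7 was named for the highest mean TPM and the smallest p of its list in this contrast. Between the mice it was at 0.02 ± 0.30 (adjusted p = 0.997, edgeR). Cbx6 differed more between the mice than between the morpholinos. It had 3.53 TPM (control) and 4.74 TPM (Numb exon 6) in mouse 1, against 1.81 and 2.23 TPM in mouse 2. Its difference between the mice was -1.19 ± 0.18 (SE), with an adjusted p of 0.355 in edgeR and 9.95e-07 in DESeq2, and it ran from 9.95e-07 to 0.584 over the alternatives. Between the mice 0 genes of the 4 lists were called in edgeR. At an unadjusted p under 0.05, 2 HP1 partners and 2 demethylases were higher in mouse 2, and 1 methyltransferase partner and 1 Polycomb chromobox gene were lower, beside 8.31% of all genes.

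**Figure D5:**
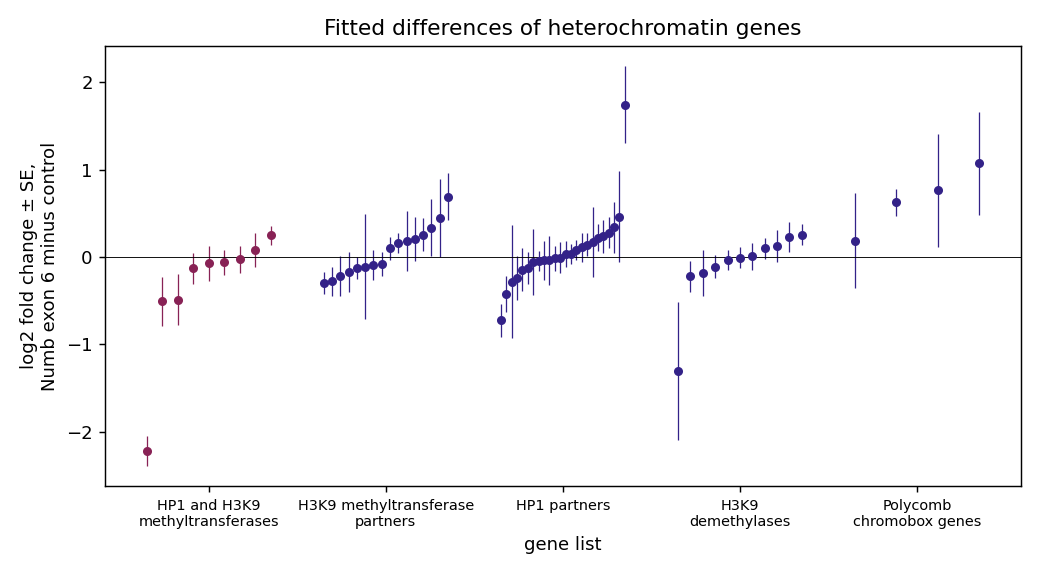
Fitted log2 fold change, Numb exon 6 minus control, with its SE as the bar, for the 9 genes and for the members of 4 lists, each sorted from low to high. Cbx3 at -2.22 and Adnp at 1.74 are the points farthest from 0, and most other points lie near 0.

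The genes nearest to Cbx3 in pattern were found among 8539 others by the root mean square difference of log2 CPM, centred per gene, over the 4 libraries. Klhdc10, a kelch domain protein gene, was nearest at 0.236, with 12.8 and 13.1 CPM in the controls and 3.08 and 4.49 CPM with the Numb exon 6 morpholino. Next came 4930453N24Rik at 0.39, with 41.3 and 39.1 CPM against 14.9 and 12.0 CPM. Ncoa5, a nuclear receptor coactivator gene, followed at 0.572, with 59.2 and 48.8 CPM against 25.1 and 24.6 CPM. All 3 were lower in both Numb exon 6 libraries, which follows from picking them by the pattern of Cbx3 in these same libraries. They were lower by less than Cbx3, the gene ranked first by its fall above. Nothing is read from either. In TPM 4930453N24Rik had 14.8 and 13.7 in the controls and 11.3 and 9.74 with the Numb exon 6 morpholino, a smaller difference than in CPM.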

How the data were processed

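RNA of satellite cells (5 ng per sample) was made into cDNA by SMART-Seq2 per the labels' protocols, a method that keeps no strand. Per the submitters' processing notes, HISAT2 2.1.0, StringTie 1.3.6 and GRCm38 were used. The authors' deposited tables hold estimated counts, which are whole numbers that carry transcript length, and TPM, which are scaled to it. How counts were made from coverage is not given in the sources used here, and the depth in fragments is unknown.

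Estimated counts were tested in edgeR 4.0.16 (R 4.3.3): quasi-likelihood, TMM, the default filter, Benjamini-Hochberg adjustment at 0.05, no block. Log2 CPM used a prior count of 2. Implied length is count over TPM divided by a constant per library from genes with 1 annotated transcript and over 500 counts, which held within 1% for at least 99.96% of them. Gene models came from GENCODE vM21 (55094 of 55487 identifiers matched), and copies from BLAST 2.17.0. The script was tested on simulated data.

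The labels tie both libraries of a number to 1 mouse, so the mice pair the samples. Their deviations from the group means correlated across genes at 0.401 where log2 CPM averaged 3 or higher, and at 0.056 over all tested genes.

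The 9 genes and all lists were chosen with earlier results of these data known. Picked besides the 9 were copies and neighbours of them, the 3 genes nearest to Cbx3, and Numb. Per list the 2 genes highest in mean TPM were picked. So were the 2 with the smallest p in each comparison among genes averaging a log2 CPM of 1 or higher. Of these, Cdyl, Prdm2, Mbd1 and Kdm4b, picked by their p between the mice, are not described above (adjusted p from 0.59 to 0.754, edgeR). Only some of the copies and neighbours are described. A gene of one list is not reported here and was left out of that list's counts. Alternatives were other size factors and filters, DESeq2 1.42.0, limma 3.58.1 on log2(TPM + 1), log2(TPM + 0.1) and with voom, counts divided by 4, the block, and leaving out each library.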

Additional observations from a re-analysis of the deposited data

How the results depend on the processing

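With 2 libraries a group and an unknown depth in fragments, small differences of these genes were not resolvable. Over 14 settings the log2 fold change of Cbx3 between the morpholinos ran from -2.39 to -2.07, of Cbx5 from 0.22 to 0.29, of Cbx1 from -0.98 to -0.13 and of Suv39h2 from -0.83 to -0.11. With the mouse as a replicate block Cbx3 was at -2.23, and the block called 0 genes, as without it, so it changed no call. Genes called between the morpholinos numbered 10 without a filter on low counts, 1 at a CPM of at least 5, 65 in DESeq2 and 0 to 1 leaving out 1 library, against 0; DESeq2 called 1 gene of the 4 lists, Adnp, at 1.74. Between the mice 119, 43, 490 and 1 to 28 were called in the same settings, 4 with limma on log2(TPM + 1) and 1 with the morpholino as a term, against 7. Of the lists, 1 gene was called between the mice without a filter (Cbx6, -1.20) and 2 in DESeq2 (Cbx6, -1.20, and Chd4, 0.49). The sign between the mice changed for Cbx3 with voom (0.14), log2(TPM + 1) (0.20), log2(TPM + 0.1) (0.22) and the morpholino as a term (0.10), and for Cbx5 with other size factors and in DESeq2 (-0.0017 in both). For Cbx7 it changed with voom (-0.0251), log2(TPM + 1) (-0.0218), log2(TPM + 0.1) (-0.0268) and the morpholino as a term (-0.0042). Leaving out 1 library moved values between the mice across 0, from -0.9218 to 0.062 for Cbx1, -1.38 to 1.65 for Cbx3, -0.13 to 0.15 for Cbx5, -0.0364 to 0.7797 for Suv39h2 and -0.4022 to 0.3442 for Cbx7. Between the morpholinos it did so from -0.34 to 0.05 for Trim28, -0.16 to 0.09 for Suv39h1, -0.14 to 0.32 for Setdb1, -0.26 to 0.13 for Ehmt1, -0.43 to 0.11 for Chd4, -0.0515 to 0.2987 for Kdm3a and -0.58 to 0.85 for Cbx6. With 1 library left out, mouse and morpholino are no longer balanced, and these fits held no term for the other factor. The differences of mice and of morpholinos are thus mixed in the values that leave out 1 library and cannot be told apart there. None of these sign changes involved a called value, and the cause was not tested.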
